A study of Mus musculus with 27 samples.

Results

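The semaphorins and their plexin and neuropilin receptors were followed through 27 arrays of mouse microglia, engrafted macrophages, monocytes and tissue macrophages. The members are the 31 genes whose symbols name a class 3 to class 7 semaphorin, a plexin or a neuropilin and that are the single symbol of a row in the expression table, out of 21666 genes with such a row. They comprise 20 semaphorins, 9 plexins and 2 neuropilins. *Plxna1* and *Plxnb1* had 2 rows each, and a gene was represented by its row of highest mean signal. The members were taken by symbol, but this gene set was chosen with earlier results of these data known.

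The study emptied the microglial niche of C57BL/6 mice and compared the cells that refilled it. In Cx3cr1CreER/+R26DTA/+ mice, tamoxifen (TAM) given on consecutive days turned on diphtheria toxin A in cells that use the *Cx3cr1* promoter, and CD11b+CX3CR1hi cells were sorted from the CNS as an F4/80low and an F4/80hi population 4 weeks (3 and 2 arrays) or 12 weeks (3 and 3 arrays) after TAM. DTR microglia (2 arrays) came from Cx3cr1CreER/+R26DTR/+ mice that received TAM and later diphtheria toxin, and were sorted 2 weeks after the toxin. The reference groups were naive microglia (5 arrays), Ly6Chi bone marrow monocytes isolated with a magnetic kit (5 arrays), splenic red pulp macrophages (RPM, sorted as CD45+F4/80hi, 2 arrays) and intestinal macrophages (CX3CR1hiCD64+MHCII+, 2 arrays). The study's text gives TAM-treated Cx3cr1CreER/+ mice as the source of naive microglia, whereas the labels also allow untreated mice. RNA came from pooled mice, and some arrays of the naive and monocyte groups are technical repeats according to the study's methods without being marked, so p-values measure only the spread between these arrays. *Cx3cr1* also marks the monocyte lineage, so the Cre driver is not restricted to microglia. The study took F4/80hi and F4/80low cells from the same brains. It traced F4/80hi cells to Ly6Chi monocytes and F4/80low cells to resident microglia that proliferated. A difference of F4/80hi cells from naive microglia is therefore not a change within their lineage. The 12-week and DTR arrays belong to the first array batch and the 4-week, RPM and intestinal arrays to the second, and naive and monocyte arrays lie in both.

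Semaphorins are guidance cues, secreted or held at the cell surface, that were first known from growing axons and that also steer endothelial, immune and glial cells. Plexins are their signalling receptors, with a cytoplasmic domain that switches off small GTPases of the Ras family, and neuropilins are the co-receptors that let secreted class 3 semaphorins act through class A plexins. Neuropilins also bind vascular endothelial growth factors, and several class 4 semaphorins act on immune cells.

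Values are log2 signals as deposited. A difference was called where limma's Benjamini-Hochberg adjusted p, over all rows tested, was under 0.05 and the change exceeded 2-fold. Fitted differences carry a batch term and so deviate slightly from the difference of group means. The background was taken as the level below which 95% of signals of olfactory receptor genes lie, 5.39. A signal under it is not told apart from background here, and folds against such a group depend on the background. Signals of different genes are not compared, since each probe set has its own response.

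All 5 measured microglial marker genes (*P2ry12*, *Tmem119*, *Sall1*, *Siglech*, *Fcrls*) exceeded the background in each of the 6 CNS groups. Their array means were 10.13 to 10.44 in F4/80hi cells at 12 weeks and 11.67 to 11.89 in naive microglia. F4/80hi cells at 4 weeks gave 11.23 and 11.38, above the 12-week F4/80hi arrays and just under F4/80low cells at 4 weeks (11.40 to 11.91). The part of this difference between the 4-week and 12-week F4/80hi arrays in the results below was not tested. In the 4-week groups 6 of 6 neutrophil genes exceeded the background, and their mean was 10.29 and 7.25 in the 2 F4/80hi arrays and 10.18, 10.14 and 6.97 in the 3 F4/80low arrays, against 5.15 to 5.55 in naive microglia. Monocytes also had all 6 of them above the background (array means 8.79 to 9.72), and RPM 5 of 6 (7.22 in both arrays). The mean of 3 monocyte genes was 12.09 to 12.18 in monocytes, 6.49 to 7.58 in F4/80hi and 5.99 to 7.79 in F4/80low cells at 4 weeks, 6.20 to 6.46 in F4/80hi cells at 12 weeks and 5.21 to 6.05 in naive microglia. Intestinal macrophages gave 9.43 and 9.60 for these monocyte genes. They also carried B and plasma cell genes, at 9.74 to 10.07. Of 4 epithelial genes, 3 exceeded the background in them (array means 6.00 to 6.20). The part of these other cells in the results below was not tested, and in bulk samples fewer cells of a type and less RNA per cell cannot be told apart.

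Of the 31 genes, 21 had a group mean above the background and 10 stayed under it in every group. Calls were made for 18 genes in at least 1 of the 16 comparisons and for 13 in none, while 32.5% of all 21666 genes were called in at least 1.

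*Sema4g* was lower in F4/80hi cells than in naive microglia, and *Sema4c* set all CNS groups apart from the other cells. *Plxnd1*, *Plxnc1* and *Nrp1* were higher in F4/80hi cells at 12 weeks than in naive microglia. Promoter sequences of these 5 members are shown as examples of the main differences. Each is the 250 bases upstream of the most upstream annotated start in RefSeq (GRCm38.p6), read 5′ to 3′ on the gene's strand, at chr19:44989094-44989343 (plus strand), chr1:36558382-36558631 (minus), chr6:115995006-115995255 (minus), chr10:94944846-94945095 (minus) and chr8:128358823-128359072 (plus). Capitals mark GAGGAA or its complement TTCCTC, the core bound by the myeloid ETS factor PU.1.
Sema4g: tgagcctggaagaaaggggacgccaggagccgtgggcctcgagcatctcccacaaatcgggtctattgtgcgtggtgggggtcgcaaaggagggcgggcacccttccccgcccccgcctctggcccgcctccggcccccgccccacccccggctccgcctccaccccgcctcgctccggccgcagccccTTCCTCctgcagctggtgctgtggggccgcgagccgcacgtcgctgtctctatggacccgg
Sema4c: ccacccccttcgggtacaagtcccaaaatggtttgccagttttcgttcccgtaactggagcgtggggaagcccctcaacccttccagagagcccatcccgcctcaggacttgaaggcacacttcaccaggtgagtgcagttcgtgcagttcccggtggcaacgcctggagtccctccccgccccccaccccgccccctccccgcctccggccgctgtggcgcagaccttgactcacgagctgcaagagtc
Plxnd1: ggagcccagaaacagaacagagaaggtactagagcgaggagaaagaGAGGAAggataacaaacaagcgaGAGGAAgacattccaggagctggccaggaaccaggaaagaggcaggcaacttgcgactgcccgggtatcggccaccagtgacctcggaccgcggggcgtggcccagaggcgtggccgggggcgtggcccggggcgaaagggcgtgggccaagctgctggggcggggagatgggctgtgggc
Plxnc1: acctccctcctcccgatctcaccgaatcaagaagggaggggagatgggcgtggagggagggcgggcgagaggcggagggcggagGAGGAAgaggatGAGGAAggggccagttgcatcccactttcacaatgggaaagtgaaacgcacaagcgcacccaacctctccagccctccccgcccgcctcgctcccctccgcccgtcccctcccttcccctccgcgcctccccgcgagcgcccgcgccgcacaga
Nrp1: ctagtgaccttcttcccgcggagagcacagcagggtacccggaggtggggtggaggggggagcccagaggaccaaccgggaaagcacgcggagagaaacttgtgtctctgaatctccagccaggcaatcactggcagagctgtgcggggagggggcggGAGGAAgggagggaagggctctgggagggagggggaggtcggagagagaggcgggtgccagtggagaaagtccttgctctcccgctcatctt
The core occurred 2 times each in *Plxnd1* and *Plxnc1*, once in *Nrp1* (all on the gene's strand), once on the other strand in *Sema4g* and not in *Sema4c*. Of the 31 members, 26 had a window, and 9 of these 26 (34.6%) held the core on either strand, against 23.1% of 27025 genes. *Plxna1*, which was also higher in F4/80hi cells than in naive microglia, had no window and so is not shown. A match is a description of the letters in this window and not a binding site.

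The secreted class 3 semaphorins, ligands of the neuropilin and class A plexin complexes, lay under or close to the background. *Sema3a*, *Sema3b*, *Sema3c*, *Sema3d*, *Sema3e* and *Sema3g* lay under the background in all 27 arrays. *Sema3f* exceeded it in 3 arrays, with 5.77 at most. Its group means in naive microglia (5.39) and F4/80low cells at 4 weeks (5.40) were just above the background. None of the 7 was called in any of the 16 comparisons. *Sema4f*, *Sema5a*, *Plxna2* and *Plxnb1* had no group mean above the background. Conversely, *Sema5b*, a transmembrane class 5 semaphorin, lay between 8.21 and 9.01 in all 27 arrays and was not called anywhere.

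*Sema4g*, a transmembrane class 4 semaphorin, was, at 12 weeks, the member with the largest difference between F4/80hi cells and naive microglia. Its log2 signal was 10.08, 9.28, 10.59, 9.79 and 9.95 in naive microglia, and in F4/80low cells it was 9.11, 9.72 and 9.41 (4 weeks) and 9.43, 9.46 and 9.12 (12 weeks). DTR microglia gave 10.00 and 9.54. F4/80hi cells gave 8.73 and 7.87 at 4 weeks and 6.14, 6.62 and 6.06 at 12 weeks. All 5 F4/80hi arrays lay under every F4/80low, DTR and naive array, and the 12-week arrays lay under the 4-week arrays. Monocytes (4.51 to 5.43), RPM (4.37 and 4.91) and intestinal macrophages (4.97 and 4.80) were at the background, with 1 monocyte array just above it.

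Against naive microglia, *Sema4g* was 10.6-fold lower in F4/80hi cells at 12 weeks (log2 difference -3.41, SE 0.26, limma adjusted p = 2.57e-09) and 3.50-fold lower at 4 weeks (-1.81, SE 0.28, adjusted p = 1.07e-04). Compared with F4/80low cells of the same time it was 8.37-fold lower at 12 weeks (-3.06, SE 0.26, adjusted p = 1.75e-08), while the difference at 4 weeks missed the threshold (-1.11, SE 0.29, adjusted p = 0.0959). The gap between the populations was larger at 12 weeks by 1.95 on the log2 scale (SE 0.39, adjusted p = 0.0364). That call was lost in 7 of the 11 fits that left out 1 array (adjusted p 0.00708 to 0.164), with the replicate number as a block (-1.97, adjusted p = 0.0536), and without the 3 4-week arrays of highest neutrophil gene means (F4/80hi replicate 1, F4/80low replicates 1 and 2; -1.53, adjusted p = 0.508). That omission leaves 1 array in each 4-week population, assumed to vary like the other groups, and the 2 kept arrays still had neutrophil gene means of 7.25 and 6.97. F4/80hi cells at 12 weeks still stood 2.95-fold above monocytes (1.56, SE 0.24, adjusted p = 1.50e-05), whose signal was at the background. *Sema4g* belongs to a signature that the study drew from these arrays, so its lower signal in F4/80hi cells than in microglia is not independent evidence.

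*Sema4c*, a transmembrane ligand of plexin-B2, set all CNS groups apart from monocytes and tissue macrophages. Over the 18 CNS arrays it lay between 9.80 and 10.81. Monocytes gave 6.15, 6.12, 6.47, 6.03 and 6.37, RPM 7.48 and 7.10, and intestinal macrophages 7.77 and 7.72, so no CNS array overlapped with any of them. F4/80hi cells exceeded monocytes 14.6-fold at 12 weeks (log2 difference 3.87, SE 0.19, adjusted p = 5.11e-14) and 18.7-fold at 4 weeks (4.23, SE 0.23, adjusted p = 4.73e-13). No repopulating group was called against naive microglia.

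*Sema4a*, a transmembrane semaphorin that acts on T cells, was highest in monocytes. They gave 9.86, 9.81, 9.83, 9.93 and 9.86, against 6.01 to 6.41 in naive microglia and 5.57 and 5.14 in RPM. Intestinal macrophages, at 7.85 and 8.09, also exceeded naive microglia (3.50-fold, adjusted p = 3.28e-08). F4/80hi cells gave 7.34 and 7.67 at 4 weeks and 6.92, 6.64 and 6.38 at 12 weeks, and F4/80low cells 6.79, 7.11 and 6.57 at 4 weeks and 5.67, 6.13 and 5.75 at 12 weeks. The 4-week F4/80hi arrays therefore lay above all other CNS arrays and below all monocyte arrays. *Sema4a* was 2.54-fold higher in them than in naive microglia (1.34, SE 0.19, adjusted p = 3.04e-05) and 5.25-fold lower than in monocytes (-2.39, SE 0.19, adjusted p = 6.93e-10). The change between 4 and 12 weeks missed the threshold in F4/80hi (-0.80, SE 0.24, adjusted p = 0.246) and F4/80low cells (-0.91, SE 0.22, adjusted p = 0.0963).

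*Sema4b*, another transmembrane class 4 member, was lowest in DTR microglia. The 2 DTR arrays gave 6.94 and 6.35, under all 5 naive arrays (8.39, 8.38, 9.09, 8.59 and 8.31), a 3.34-fold difference (-1.74, SE 0.30, adjusted p = 0.00175). F4/80low cells at 4 weeks (7.03, 7.80 and 7.91) were also lower than naive microglia, 2.12-fold (-1.08, SE 0.25, adjusted p = 0.0197), without overlap. Leaving out DTR replicate 2 moved the first adjusted p to 0.0918. The second rose to 0.0843 without naive replicate 3 and to 0.194 without F4/80low replicate 1, and without the 3 4-week arrays of highest neutrophil gene means the difference was -0.76 (adjusted p = 0.303). Highest were the RPM, at 10.09 and 9.95.

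*Sema6a* and *Sema7a* were each raised in a single tissue macrophage. *Sema6a*, a transmembrane ligand of class A plexins, gave 9.13 and 9.15 in RPM. Elsewhere it exceeded the background in 1 array only, F4/80hi cells at 4 weeks replicate 1 (5.96). The difference between naive microglia and RPM was -4.29 (SE 0.27, adjusted p = 5.19e-12). *Sema7a*, anchored by a lipid tail and known to act through plexin-C1 and integrins, gave 7.70 and 8.24 in intestinal macrophages and at most 5.64 in any other array, 7.21-fold above naive microglia (adjusted p = 8.01e-11). These intestinal arrays also carried B and plasma cell genes.

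Of the remaining class 4 and class 6 ligands, *Sema4d*, which acts through plexin-B1, lay at 5.59 and 6.03 in RPM and at 7.87 or more in all other arrays, and was 7.39-fold higher in naive microglia than in RPM (adjusted p = 3.89e-12). *Sema6b* was 2.81-fold higher in monocytes than in naive microglia (adjusted p = 2.51e-08), with 8.90 to 9.23 against 7.42 to 7.97, and 2.78-fold higher in intestinal macrophages (9.09 and 9.12, adjusted p = 7.11e-06). *Sema6d* was 2.07-fold higher in F4/80hi cells at 12 weeks than in monocytes (5.55, 5.87 and 5.71 against 4.47 to 4.81, adjusted p = 9.96e-07), and fell below 2-fold without F4/80hi replicate 2 (log2 difference 0.97) or monocyte replicate 2 (0.98). *Sema6c* lay close to the background in every group and was not called.

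**Figure D1:**
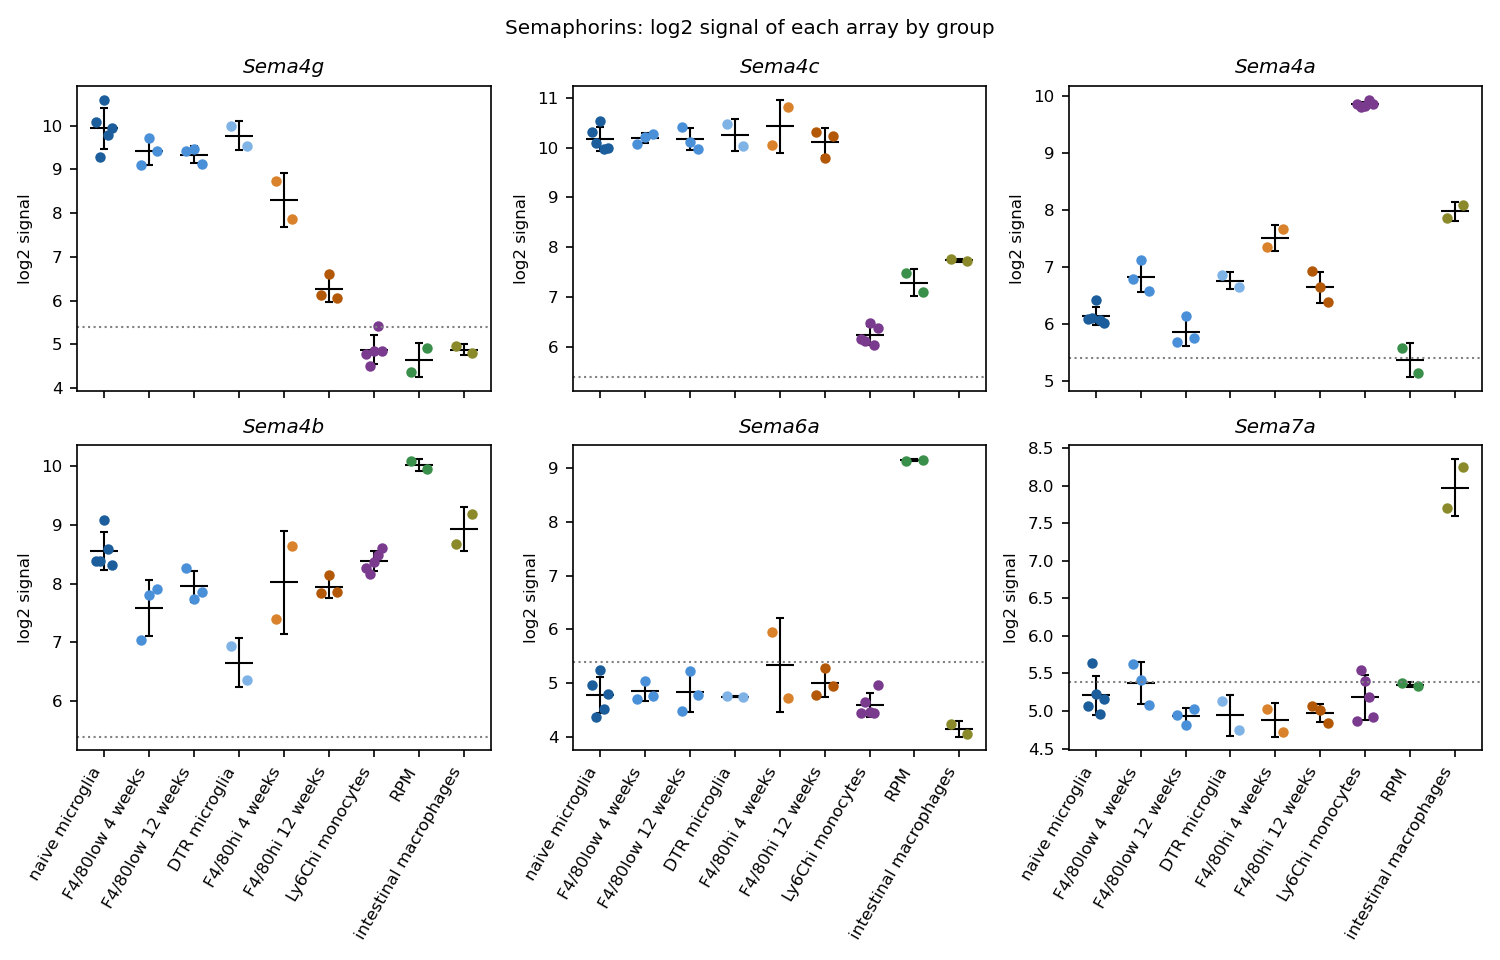
Log2 signal of 6 semaphorins in every array (points) of the 9 groups, with the group mean and SD (black bars); the dotted line is the background of 5.39. *Sema4g* fell from 9.94 in naive microglia to 6.27 in F4/80hi cells at 12 weeks, *Sema4c* was high in all CNS groups, and *Sema6a* and *Sema7a* stood out in RPM and intestinal macrophages.

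Among the receptors, *Plxnd1*, the endothelial and myeloid receptor for Sema3E and Sema4A, showed the largest excess in F4/80hi cells over naive microglia. Naive microglia gave 6.85, 6.59, 5.92, 6.94 and 7.30. F4/80hi cells gave 8.54 and 9.75 at 4 weeks and 9.31, 8.97 and 8.91 at 12 weeks, all above the naive arrays and all below the monocytes (10.96 to 11.03). *Plxnd1* was 5.38-fold higher than in naive microglia at 4 weeks (2.43, SE 0.32, adjusted p = 1.41e-05) and 5.08-fold at 12 weeks (2.34, SE 0.30, adjusted p = 5.98e-06). The 4-week value rests on 2 arrays and was 3.04 without F4/80hi replicate 1 and 1.82 without replicate 2, called in both fits. Relative to F4/80low cells it was 4.84-fold higher at 12 weeks (2.27, SE 0.29, adjusted p = 9.43e-06) and missed the threshold at 4 weeks (1.29, SE 0.33, adjusted p = 0.0880).

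F4/80low cells at 4 weeks gave 8.33, 8.03 and 7.19 for *Plxnd1*, overlapping with naive microglia, yet passed the test (1.13, SE 0.28, adjusted p = 0.0318). The first 2 of these arrays were those with neutrophil gene means of 10.18 and 10.14. Without them and F4/80hi 4 weeks replicate 1 the difference was 0.47 (adjusted p = 0.675), and the call was also lost when F4/80low replicate 1 (adjusted p = 0.239), F4/80low replicate 2 (0.149) or naive replicate 3 (0.136) was left out. At 12 weeks F4/80low cells gave 6.93, 6.88 and 6.57. Among tissue macrophages, RPM (8.78 and 8.73) stood 4.11-fold and intestinal macrophages (10.00 and 10.10) 10.1-fold above naive microglia (adjusted p = 1.51e-05 and 8.80e-09).

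*Plxna1*, a class A plexin that pairs with neuropilins and, in myeloid cells, with Trem2, was likewise higher in F4/80hi cells. Naive microglia gave 7.40, 7.30, 7.55, 7.33 and 7.49, F4/80hi cells 8.54 and 9.81 at 4 weeks and 9.64, 9.31 and 9.35 at 12 weeks. F4/80low cells gave 7.54, 8.15 and 7.37 at 4 weeks and 7.58, 7.25 and 7.18 at 12 weeks, so no F4/80hi array overlapped with them. The difference from naive microglia was 4.24-fold at 12 weeks (2.09, SE 0.24, adjusted p = 9.85e-07) and 3.29-fold at 4 weeks (1.72, SE 0.25, adjusted p = 5.94e-05), the latter 2.35 without F4/80hi replicate 1 and 1.08 without replicate 2 on the log2 scale, still called. That from F4/80low cells was 4.27-fold at 12 weeks (2.10, SE 0.23, adjusted p = 9.25e-07) and 2.81-fold at 4 weeks (1.49, SE 0.26, adjusted p = 0.00655), and leaving out F4/80hi replicate 2 ended the latter call (0.86, adjusted p = 0.409). Monocytes, at 7.02 to 7.37, did not share this higher signal. RPM stood highest, at 11.54 and 11.53. The second row of *Plxna1* did not show the difference at 12 weeks, with 4.97 ± 0.49 (SD, n = 3) against 4.96 ± 0.24 (n = 5) in naive microglia, both under the background. At 4 weeks it was 5.81 ± 0.38 (n = 2), 0.87 above naive microglia (SE 0.24, adjusted p = 0.0337, under 2-fold) and called against monocytes (1.24, SE 0.25, adjusted p = 4.73e-04).

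*Plxnc1*, the plexin through which Sema7A acts, was at the background in naive microglia (4.70, 4.93, 4.48, 4.95 and 4.68). It reached 5.67 and 5.80 in F4/80hi cells at 4 weeks, 6.14, 5.95 and 5.89 at 12 weeks, 6.29 to 6.63 in monocytes and 6.80 and 6.67 in intestinal macrophages. F4/80hi arrays thus lay between the microglial and monocyte arrays. The excess over naive microglia was 2.26-fold at 12 weeks (1.18, SE 0.17, adjusted p = 2.33e-05) and 2.05-fold at 4 weeks (1.04, SE 0.18, adjusted p = 3.42e-04), the latter falling under 2-fold without naive replicate 3 (0.96) or F4/80hi replicate 2 (0.97). Relative to F4/80low cells it was 2.83-fold at 12 weeks (1.50, SE 0.16, adjusted p = 7.03e-07).

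*Plxnb3* and *Plxna4* went the other way. *Plxnb3* gave 7.26, 7.41, 7.52, 7.48 and 7.21 in naive microglia and 6.27, 6.44 and 6.06 in F4/80hi cells at 12 weeks, 2.10-fold lower (-1.07, SE 0.18, adjusted p = 1.73e-04). *Plxna4*, a class A partner of neuropilin 1, gave 7.22, 7.32, 7.79, 6.98 and 6.98 against 6.22, 6.14 and 6.23, also 2.10-fold lower (-1.07, SE 0.18, adjusted p = 2.37e-04). Neither overlapped between these groups, and both were lower still in monocytes, at 5.27 to 5.64 and 5.15 to 5.54. The size of each fell just under 2-fold without 1 array, F4/80hi replicate 3 for *Plxnb3* (-0.98) and naive replicate 3 for *Plxna4* (-0.99). At 4 weeks neither passed in F4/80hi cells (*Plxnb3* -0.45, adjusted p = 0.265; *Plxna4* -0.70, adjusted p = 0.0337 but under 2-fold).

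*Plxna3* separated the CNS groups from monocytes (5.69 to 6.13), with 7.49 to 8.33 in naive microglia and a 4.27-fold excess in F4/80hi cells at 12 weeks (adjusted p = 4.24e-10). *Plxnb2*, the receptor of Sema4C, was 11.07 or more in all arrays but the 2 of intestinal macrophages (10.01 and 10.01), 4.56-fold under naive microglia (adjusted p = 1.02e-11).

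The neuropilins differed from each other. *Nrp1*, co-receptor for class 3 semaphorins and VEGF, gave 10.40, 10.17, 10.82, 10.36 and 10.43 in naive microglia and 11.44, 11.60 and 11.51 in F4/80hi cells at 12 weeks, 2.34-fold higher (1.23, SE 0.17, adjusted p = 1.48e-05) and without overlap. F4/80hi cells at 4 weeks gave 11.19 and 11.80 (0.96, SE 0.18, adjusted p = 9.72e-04, under 2-fold). F4/80low cells at 4 weeks gave 10.80 to 10.94, and their median of 10.92 lay above the highest naive array. The difference between the populations at 4 weeks was not called. F4/80low cells at 12 weeks gave 10.39, 9.86 and 10.19, and F4/80hi cells stood 2.57-fold above them (1.36, SE 0.16, adjusted p = 3.32e-06). Monocytes (10.20 to 10.50), RPM (10.31 and 10.28) and intestinal macrophages (10.23 and 10.45) lay within the naive range, so the F4/80hi arrays stood above every reference array. *Nrp2* gave 6.68 to 7.99 in naive microglia and 6.29, 6.65 and 6.29 in F4/80hi cells at 12 weeks, a difference that was not called (-0.68, SE 0.23, adjusted p = 0.0864), and it was lowest in RPM (5.24 and 5.39, 3.96-fold under naive microglia, adjusted p = 4.71e-07).

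**Figure D2:**
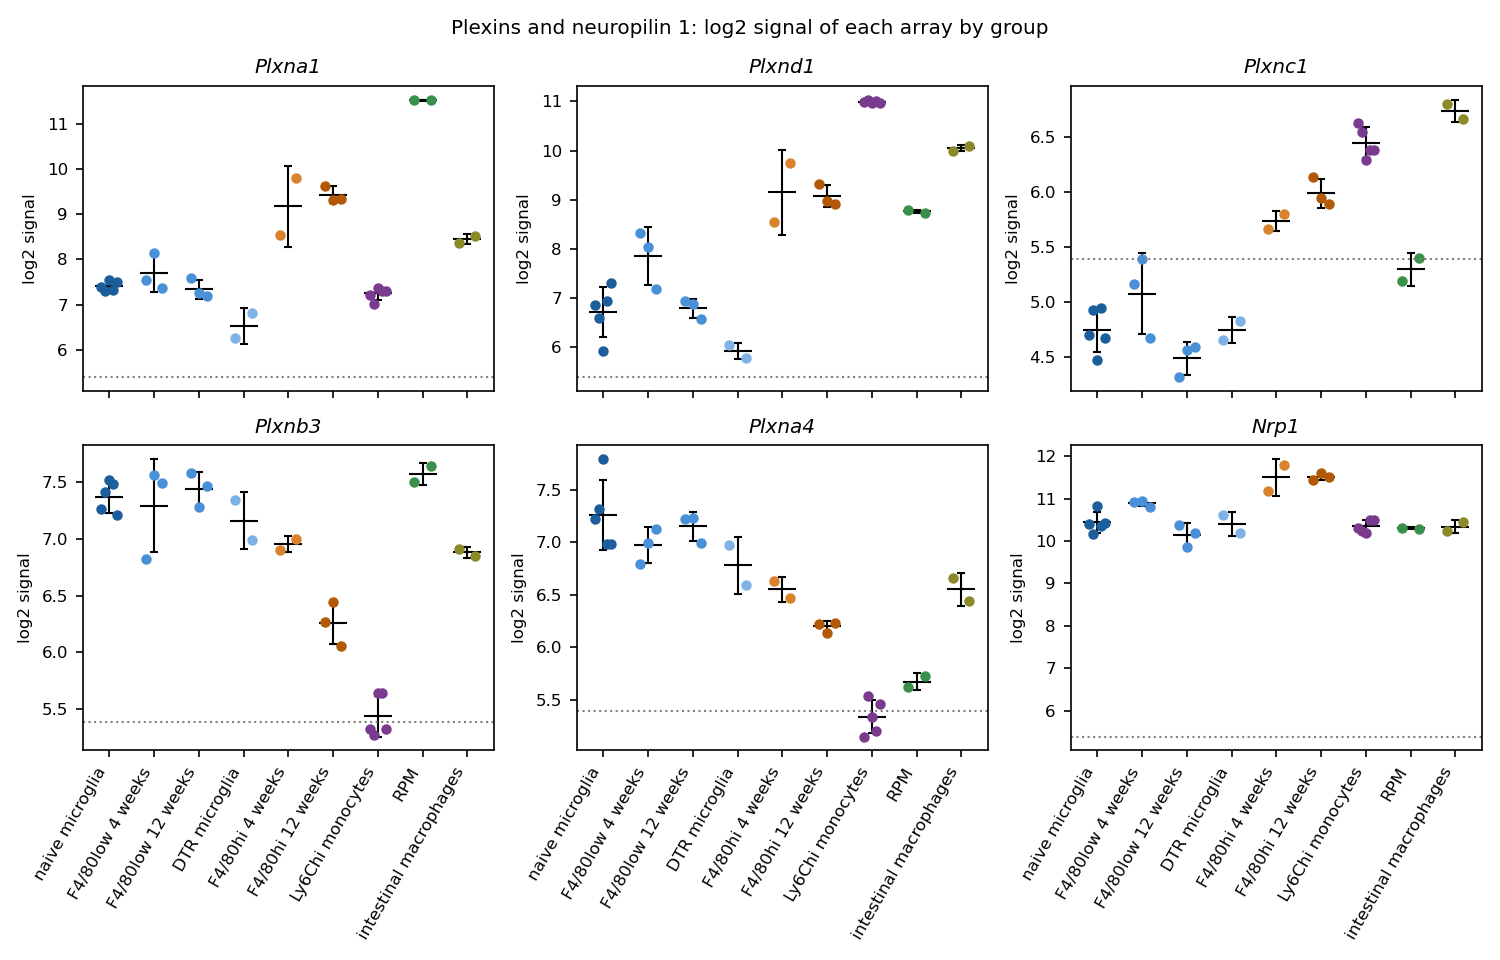
Log2 signal of 5 plexins and neuropilin 1 in every array (points) of the 9 groups, with the group mean and SD (black bars); the dotted line is the background of 5.39. In F4/80hi cells *Plxnd1* and *Plxnc1* lay between microglia and monocytes, whereas *Plxna1* and *Nrp1* lay above both.

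Counted over the members, F4/80hi cells at 12 weeks had 7 of 31 called relative to naive microglia (4 higher, 3 lower), while 3.46% of all genes were. At 4 weeks 5 were called (4 higher, 1 lower), against 2.84% of all genes. The median difference over the 31 members was 0.07 and -0.21, and over all genes -0.01 and -0.03. Plexins made up 5 of the 7 and 3 of the 5. These comparisons share the naive arrays. Against F4/80low cells 6 members were called at 12 weeks (4 higher, 2 lower; 2.95% of all genes) and 1 at 4 weeks, *Plxna1* (0.545% of all genes). The latter count was 3 without F4/80hi replicate 1, with *Plxnd1* and *Sema4g* added, 2 without F4/80low replicate 1 and 0 without F4/80hi replicate 2.

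The other repopulating groups held few calls. In F4/80low cells 0 of 31 members were called at 12 weeks (limma; 2 at an unadjusted p under 0.05; 0.115% of all genes called) and 2 at 4 weeks, *Plxnd1* and *Sema4b* (1.20% of all genes). In DTR microglia *Sema4b* was the 1 member called (0.872% of all genes). For *Sema4g* the difference of F4/80low cells at 12 weeks from naive microglia was -0.35, with a 95% confidence interval from -0.89 to 0.19, and for *Plxnd1* 0.07, from -0.55 to 0.69.

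Between 12 and 4 weeks no member was called in F4/80hi cells (0 of 31, limma; 5 at an unadjusted p under 0.05; 0.175% of all genes) or F4/80low cells (0 of 31; 5 unadjusted; 0.235% of all genes). The change of *Sema4g* in F4/80hi cells was -1.60 (SE 0.35, adjusted p = 0.0616) and passed under 4 of the other settings. The difference between the populations changed with time for *Sema4g* alone (0.129% of all genes). Each time point lies in its own batch, bridged only by the naive and monocyte arrays, whose values had been adjusted for batch before deposit.

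**Figure D3:**
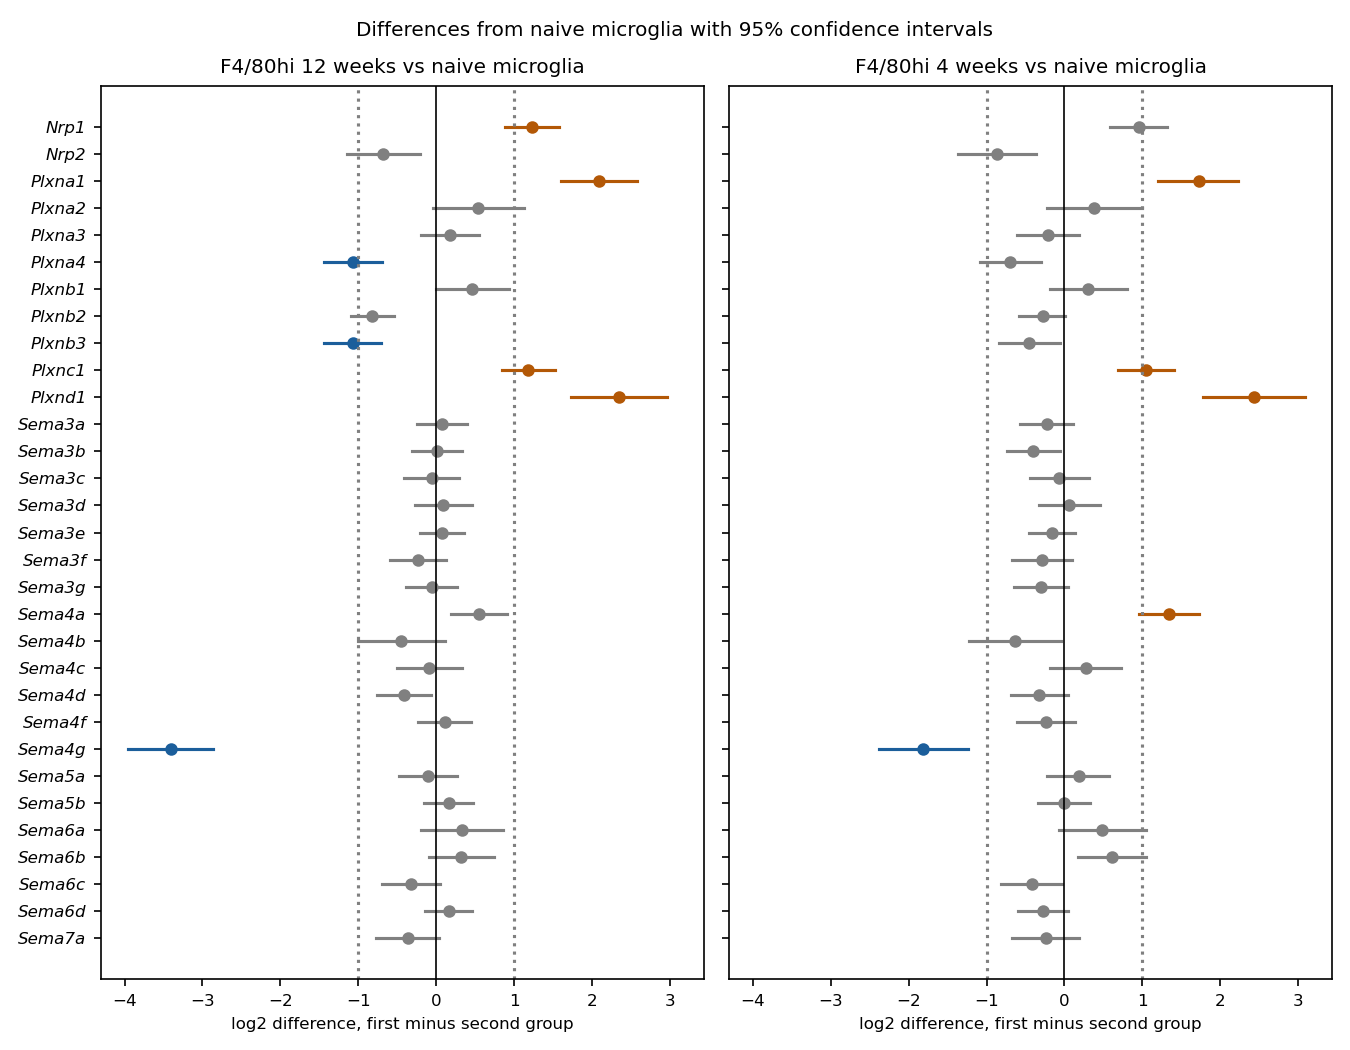
Log2 difference of each of the 31 genes in F4/80hi cells at 12 weeks (left) and 4 weeks (right) from naive microglia, with 95% confidence intervals; dotted lines mark 2-fold. Orange marks genes called higher, blue genes called lower and grey genes not called. *Plxnd1* (2.34 and 2.43), *Plxna1* (2.09 and 1.72) and *Plxnc1* (1.18 and 1.04) lie to the right and *Sema4g* (-3.41 and -1.81) to the left in both panels.

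In the cross-tissue comparisons a larger share of all genes differed. Naive microglia differed from monocytes in 9 members (5 higher, 4 lower; 16.3% of all genes), from RPM in 10 (6 higher, 4 lower; 16.8%) and from intestinal macrophages in 8 (3 higher, 5 lower; 14.0%). RPM and intestinal macrophages differed in 10 (4 higher in RPM, 6 lower; 11.6%), of which *Plxnd1* was lost without any 1 of the 4 arrays (adjusted p 0.0531 to 0.0656) and *Sema4b* without either RPM array or intestinal replicate 1. F4/80hi cells differed from monocytes in 9 members at 12 weeks (6 higher, 3 lower; 15.9%) and in 8 at 4 weeks (6 higher, 2 lower; 14.1%). Both comparisons use the same monocyte arrays.

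Partner genes of the pathway were read from 3 lists. Among 28 measured cytoplasmic effectors, 4 were lower and 0 higher in F4/80hi cells at 12 weeks than in naive microglia, where 3.46% of all genes were called: *Rras2* (-1.81, adjusted p = 5.92e-07), an R-Ras GTPase, *Dpysl2* (-1.26, adjusted p = 1.94e-05), which encodes the collapsin response mediator CRMP2, *Farp1* (-1.24, adjusted p = 1.98e-04), a guanine nucleotide exchange factor, and *Mras* (-1.24, adjusted p = 0.00394). At 4 weeks, with 2.84% of all genes called, 1 was higher, the oxidoreductase *Mical2* (1.09, adjusted p = 3.65e-04), and 2 were lower, *Farp1* (-1.60, adjusted p = 2.81e-05) and *Mras* (-1.10, adjusted p = 0.0237). The median over the list was -0.17 at 12 weeks and 0.03 at 4 weeks. *Farp1* was also lower in F4/80low cells at 4 weeks than in naive microglia, by 1.00 on the log2 scale (limma adjusted p = 0.00420). It was the 1 effector called there (1.20% of all genes). Against F4/80low cells, F4/80hi cells had 0 of 28 effectors called at 4 weeks (0.545% of all genes) and 3, all lower, at 12 weeks (2.95%).

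Of 4 proteases that cut semaphorins, 1 was called at each time, beside 3.46% of all genes at 12 weeks and 2.84% at 4 weeks. *Mmp14*, a membrane-type matrix metalloprotease, was higher in F4/80hi cells than in naive microglia at 12 weeks (9.32 ± 0.29, SD, n = 3, against 8.25 ± 0.38, n = 5; difference 1.32, SE 0.27, adjusted p = 0.00179) and at 4 weeks (9.69 ± 0.25, n = 2; 1.27, SE 0.28, adjusted p = 0.00622). F4/80low cells gave 8.98 ± 0.47 (n = 3) at 4 weeks and 7.66 ± 0.29 (n = 3) at 12 weeks. The difference between the populations was called at 12 weeks (1.66, adjusted p = 1.31e-04) but not at 4 weeks (0.71). None of 17 measured co-receptors and neuropilin ligands was called against naive microglia at 12 weeks (0 by limma, 3 at an unadjusted p under 0.05) or 4 weeks (0, with 1 unadjusted), beside the same 3.46% and 2.84% of all genes. *Trem2*, a partner of plexin-A1 in myeloid cells, was 12.03 ± 0.13 (n = 3) in F4/80hi cells at 12 weeks and 12.23 ± 0.11 (n = 5) in naive microglia, against 9.28 ± 0.05 (n = 5) in monocytes.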

How the data were processed

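Total RNA of sorted cells was hybridised to Affymetrix Mouse Gene 2.1 ST arrays. The deposited values are log2 signals that the authors made in Partek; version, background correction, probe summary and normalization are not given in the sources used here. The difference between array batches is the same in naive microglia and monocytes in every row (largest gap 1.33e-04). The values had thus been adjusted for batch before deposit. The fit, with 17 residual degrees of freedom, does not count that step, so its SEs and p-values can be too small. The size of this effect was not tested. Depth does not apply to arrays; the number of arrays limits the precision.

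Of 41345 rows, 2145 blank and 6955 that hold 0 throughout were left out and 32245 tested. Gene symbols came from the platform annotation. One linear model in limma 3.58.1 (R 4.3.3) held a mean for each of 9 groups and a batch term (17 residual, 6.23 prior degrees of freedom). P-values were two-sided and adjusted by Benjamini-Hochberg over all tested rows within each of 16 comparisons; background shares are over 21666 genes. All members are accounted for, but not every call. Each called member is given with values for at least 1 comparison, and its other calls may be only counted. Other members are given by range or count, and up to 4 called genes of each partner list by size. *Sema5b* and *Trem2* were named after their values were seen. The members, lists and alternatives were chosen with earlier results of these data known. The fit was tested on simulated data. Alternatives were no batch term, quantile normalization, median centring, a filter on low signals, a variance trend, CNS arrays only, arrays of 1 batch, averaged reference arrays, averaged rows of a gene, a replicate block, each array left out, and, chosen after seeing the data, the 3 4-week arrays with the highest neutrophil gene means left out.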

Additional observations from a re-analysis of the deposited data

Results flagged for a closer look

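*Plxnb2* in naive microglia replicate 3 was 12.40, apart from the other 4 arrays (12.09 to 12.13), and *Sema4a* in the same array was 6.41 (others 6.01 to 6.10). *Sema4d* in monocyte replicate 4 was 8.20, against 7.97 to 8.04 in the others. These 3 values stood far from the rest of their group among 62 gene and group pairs examined, and chance flags about 1 in 20 groups. The gap between F4/80hi and F4/80low cells in *Sema4g* differed between 12 and 4 weeks by -1.95 (adjusted p = 0.0364, tested as an interaction contrast in limma), with the limits given in the report.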

How the results depend on the processing

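All 77 member calls kept their direction under every setting run, and 523 of 550 fits that left out 1 array kept the call. Counts of members called, with the main count first, changed by over 1.5 times as follows. F4/80low 4 weeks against naive microglia (2) gave 1 with no batch term and 0 with CNS arrays only, arrays of batch 2 only, averaged reference arrays or without the 3 4-week arrays of highest neutrophil gene means. F4/80hi against F4/80low at 4 weeks (1) gave 0 with CNS arrays only, batch 2 only or averaged reference arrays, and 3 without those 3 arrays. DTR microglia against naive (1) gave 0 with averaged reference arrays. The time contrast of F4/80hi cells (0) gave 1, *Sema4g*, with no batch term, quantile normalization, median centring or the low-signal filter. The interaction (1) gave 0 with no batch term, CNS arrays only, the replicate block (*Sema4g* -1.97, adjusted p = 0.0536) or without those 3 arrays. Leaving out 1 array gave 6 to 7 (F4/80hi 12 weeks against naive), 5 to 6 (F4/80hi 4 weeks), 0 to 0 (F4/80low 12 weeks), 0 to 2 (F4/80low 4 weeks; 0 without naive replicate 3 or F4/80low replicate 1), 0 to 1 (DTR; 0 without DTR replicate 2), 6 to 7 and 0 to 3 (F4/80hi against F4/80low at 12 and 4 weeks), 0 to 1 in both time contrasts (*Sema4g* without F4/80hi 4 weeks replicate 2 or 12 weeks replicate 2; *Sema4a* without F4/80low 4 weeks replicate 3) and 0 to 2 in the interaction. It gave 9 to 10, 10 to 11 and 8 to 9 for naive microglia against monocytes, RPM and intestinal macrophages, 8 to 9 for RPM against intestinal macrophages, and 8 to 9 and 8 to 11 for F4/80hi cells at 12 and 4 weeks against monocytes. Same-numbered F4/80hi and F4/80low arrays correlated at 0.282 and -9.10e-04 at 4 weeks and -0.0789, -0.103 and -0.0551 at 12 weeks, and although the populations came from the same brains, the sources used here do not say that equal numbers mark 1 pool. The replicate block changed no other call. Groups of 2 arrays borrow the spread of the others. The cause of these changes was not tested. Of the 31 members 22 passed the filter on low signals.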

Other observations

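Partner genes marked the reference cells. *Met*, the receptor tyrosine kinase that couples to plexin-B1, was 10.51 ± 0.15 (SD, n = 5) in monocytes and 4.81 ± 0.31 (n = 5), under the background, in naive microglia (log2 difference -5.64, limma adjusted p = 9.45e-20). The adhesion molecule *L1cam* was 9.80 ± 0.09 (n = 5) against 5.33 ± 0.18 (n = 5; -4.47, adjusted p = 1.21e-16). In F4/80hi cells at 12 weeks both means were under the background, at 4.73 ± 0.27 and 5.24 ± 0.28 (n = 3).

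Intestinal macrophages, whose arrays also carried B and plasma cell genes and epithelial genes, stood apart in the neuropilin ligands *Pgf* and *Vegfa*. *Vegfc*, of the same VEGF family, did not stand apart, at 5.64 ± 0.46 (n = 2) against 5.32 ± 0.25 (n = 5) in naive microglia. *Pgf* was 10.42 ± 0.24 (n = 2) in intestinal macrophages and at most 5.21 in any other array. *Vegfa* was 10.36 ± 0.29 (n = 2) in them against 6.60 ± 0.25 (n = 5) in naive microglia (-3.73, adjusted p = 2.99e-12). RPM had the highest *Mras*, at 9.19 ± 0.01 (n = 2), and *Trem2* at 5.88 ± 0.75 (n = 2), 6.37 under naive microglia on the log2 scale (adjusted p = 1.10e-16).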
